A study of Mus musculus with 2 samples.

Results

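The gene set described here is Nfe2l2, which encodes the transcription factor NRF2, its inhibitor gene Keap1 and 8 antioxidant target genes of NRF2 (Nqo1, Hmox1, Gclc, Gclm, Txnrd1, Srxn1, Gsr and Prdx1). The members were the non-control probes that carry one of these 10 gene names on both arrays, out of 36493 gene names in all. All 10 genes were found, with 13 probes of 1 spot each: 3 genes had 2 probes and 7 had 1. The question was whether the targets were lower together with Nfe2l2, which has been reported in other systems as a target of the microRNA miR-153. Both samples held NSPCs (neural stem and progenitor cells) made from mouse embryonic stem cells by way of embryoid bodies and grown as neurospheres, both at passage 2 and collected on day 18 of culture after the embryoid bodies. The 2 groups were control cells, whose label reads TNs_control_OE, and cells overexpressing miR-153 (TNs_miR-153_OE), each with 1 Cy3-labelled Agilent array. The labels name no vector, cell line, clone or number of cultures for either group.

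NRF2 is the main sensor-driven activator of antioxidant genes. In unstressed cells KEAP1 holds it in the cytoplasm and hands it to a CUL3 ubiquitin ligase for destruction, and oxidants or electrophiles that modify KEAP1 let newly made NRF2 reach the nucleus. There it pairs with a small MAF protein on antioxidant response elements and raises genes for glutathione synthesis, thioredoxin recycling, quinone reduction and heme breakdown. In the brain this programme is more active in astrocytes than in neurons. Because much of its control lies in protein stability, the mRNA level of Nfe2l2 is not a measure of NRF2 activity, and no protein was measured on these arrays.

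The overexpressed microRNA is shown for its seed, bases 2 to 8 of the mature strand, written in capitals. The sequences are from RefSeq, assembly GRCm38.p6, for the 2 arms of the hairpin on the plus strand of chromosome 12. The labels do not say which arm was overexpressed.
mmu-miR-153-3p: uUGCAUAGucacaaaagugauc
mmu-miR-153-5p: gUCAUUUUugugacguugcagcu
The seeds of the arms differ. Sites complementary to either seed were absent from the letters of all 13 probes, and 0.336% and 1.12% of 55681 probes held a site for the 3p and the 5p seed. The mature microRNA itself was not measured.

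Levels are log2 of the scanner's processed signal minus the 75th percentile of non-control spots on the same array, which was 435 intensity units for control and 549 for miR-153. A raw signal on the miR-153 array therefore stands for a lower relative level than the same signal on the control array. Differences are log2 of miR-153 minus control. With 1 array per group there was no replicate and no test, and a gene was counted as lower or higher by a fixed size of 2-fold. Errors from the files cover the measurement only. The scanner's own error model gave 0.20 to 0.21 for each difference, single spots of a repeated probe had a median SD of 0.075 (263 probes), and different probes of one gene had an SD of 0.45 (3442 genes). All 13 probes were well above background on both arrays and none was saturated.

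Nfe2l2 was lower on the miR-153 array. Its signal was 1573 intensity units in control cells and 567 in miR-153 cells, which are relative levels of 1.85 and 0.04. The difference was -1.81, or 3.50-fold lower, larger than each of the errors above. Across the 20473 genes measured on both arrays, 3.09% had a difference at or below that of Nfe2l2. It rests on 1 probe, at chromosome 2, 75513771 to 75513830 (mm9), which matches transcript NM_010902.

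Keap1, the gene of the adaptor that targets NRF2 for destruction, was nearly level. Its signal was 3121 in control and 3738 in miR-153 cells. After scaling these are relative levels of 2.84 and 2.77, a difference of -0.08 that is within the scanner error. Its sign turned with the scaling, to 0.19 on spike-in RNA and 0.03 on the median of all probes. The probe lies on chromosome 9 between 21035292 and 21035732, a span of 441 bases for a 60-base probe, so it crosses an intron.

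**Figure D1:**
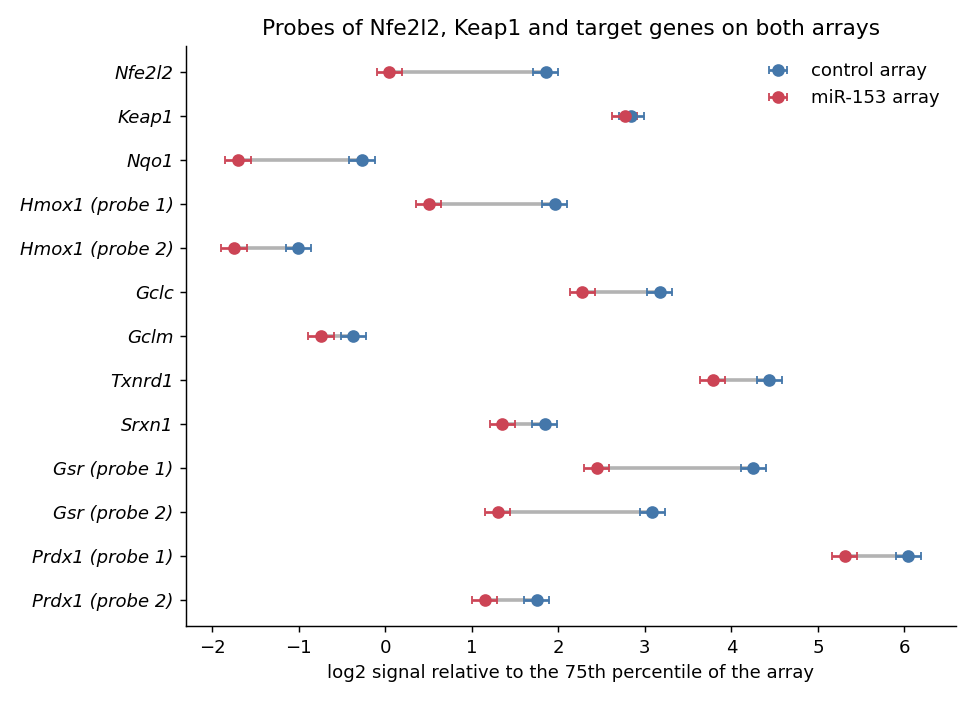
Relative level (log2 signal minus the 75th percentile of the array, x axis) of the 13 probes on the control array (blue) and the miR-153 array (red), 1 row per probe. Bars are the scanner's error of the signal. Every red point lies to the left of its blue point, with the widest gaps at Nfe2l2 and Gsr and overlapping points at Keap1.

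The glutathione genes differed in size. Gsr, the gene of glutathione reductase, which regenerates reduced glutathione with NADPH, had signals of 8305 and 2988 on its brighter probe and 3694 and 1356 on the other, each time control first. Both of its probes were lower on the miR-153 array by nearly the same amount, -1.81 (3.51-fold) and -1.78. They lie next to each other on chromosome 8, at 34808488 to 34808547 and 34808413 to 34808472, so they read the same end of the transcript. Gclc encodes the catalytic subunit of glutamate-cysteine ligase, which makes the rate-limiting step of glutathione synthesis. Its signal was 3926 in control and 2658 in miR-153 cells, a difference of -0.90 that falls just short of 2-fold. Gclm, the modifier subunit of the same enzyme, had signals of 337 and 328 and a difference of -0.37, which is below the SD between probes of a gene. The subunits of the ligase thus stood 1.86-fold and 1.30-fold lower.

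The thioredoxin genes were lower by less than 2-fold. Txnrd1, the cytosolic thioredoxin reductase, had signals of 9431 in control and 7580 in miR-153 cells, a difference of -0.65 (-0.47 after lowess and -0.39 with spike-in scaling). Prdx1, a peroxiredoxin that removes hydrogen peroxide, had signals of 28689 and 21818 on its brighter probe. That probe gave -0.73, and a dimmer one with signals of 1468 and 1221 gave -0.60. The bright value came to -0.33 both after lowess and after quantile normalization, where the dimmer probe stayed at -0.63 and -0.62. Srxn1, which encodes the sulfiredoxin that repairs overoxidized peroxiredoxins, had signals of 1561 and 1406 and a difference of -0.49. All 4 of these probes had a higher signal on the control array. With the main scaling, each difference was larger in size than both the scanner error and the probe SD of 0.45. The latter depends on the setting. With spike-in scaling Srxn1 (-0.23), Txnrd1 (-0.39) and the dimmer Prdx1 probe (-0.34) fell short of 0.45, while the brighter Prdx1 probe (-0.47) did not. Srxn1 also fell short with median scaling (-0.39), as did the brighter Prdx1 probe after lowess and quantile normalization.

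Nqo1 and Hmox1 were more than 2-fold lower. Nqo1 encodes a reductase that converts quinones to hydroquinones without a radical step and is a standard readout of NRF2. Its signal was 361 in control and 169 in miR-153 cells, relative levels of -0.27 and -1.70, a difference of -1.43 (2.70-fold). Normexp background correction gave -1.16, the widest move among the 13 probes under that setting. Hmox1, the inducible heme oxygenase, had signals of 1694 and 779 on its brighter probe, a difference of -1.46 (2.74-fold). Its other probe, nearer the start of the transcript (position 324 against 1290), had signals of 217 and 164 and a difference of -0.74. The Hmox1 probes thus share a direction, with a gap of 0.71 between them, and only the brighter one passes 2-fold. Their mean was -1.10.

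Of the 10 genes, 4 (Gsr, Nfe2l2, Hmox1 and Nqo1) were at least 2-fold lower, 6 lay between and 0 were at least 2-fold higher. The background shares over all 20473 genes were 11.1% lower and 9.21% higher by the same rule. Nfe2l2 was chosen with its lower level known, so it does not bear on the question. The targets were also chosen with earlier results of these data known, so their counts only describe these arrays. The 8 targets alone had 3 lower, 5 between and 0 higher. All 10 genes, the 8 targets among them, had a difference below 0, where 56.1% of all genes did. The median difference was -0.81 over the 10 genes, -0.81 over the 8 targets and -0.11 over all genes. Keap1 was the 1 member that did not lie below the median of all genes. The targets did not share 1 size of difference: Gsr stood at the same -1.81 as Nfe2l2, Hmox1 and Nqo1 stood next, and Gclm and Srxn1 were closest to the bulk of genes. Levels of these genes read a whole culture, in which fewer cells of a type and less RNA per cell cannot be told apart.

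**Figure D2:**
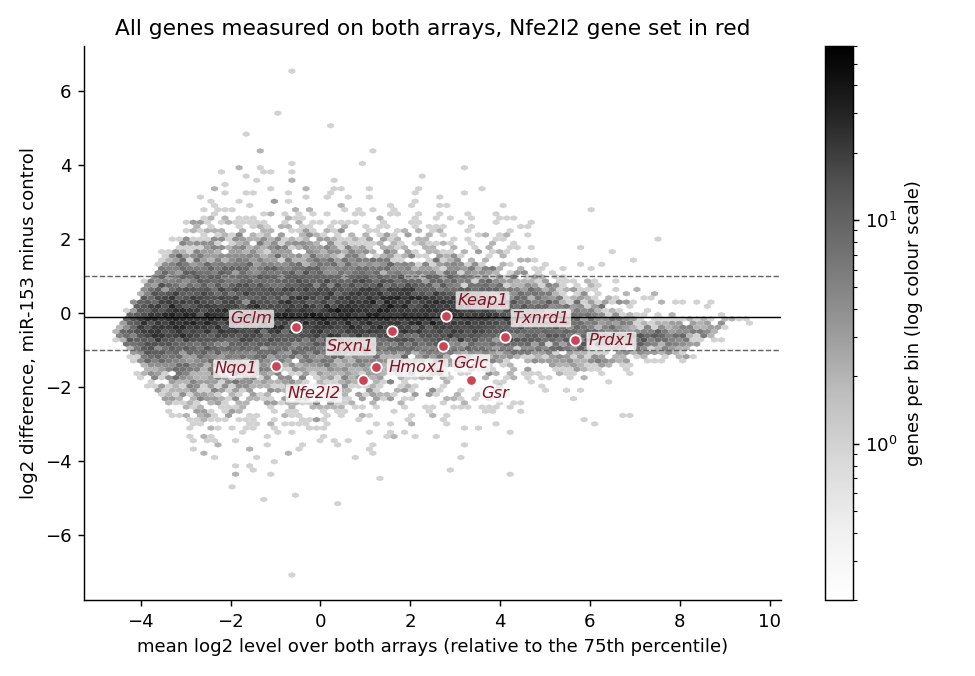
Log2 difference, miR-153 minus control (y axis), against mean log2 level over both arrays (x axis) for 20473 genes in grey bins, darker for more genes on a log scale, with the 10 genes in red. The solid line is the median of all genes (-0.11) and the dashed lines mark 2-fold. Of the red points, 4 lie below the lower dashed line and Keap1 lies on the solid line.

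The 4 lower genes kept that call under every background correction and scaling tried. Over these settings and the other choices, except those of the size rule, Nfe2l2 ranged from -1.85 to -1.55, Gsr from -1.82 to -1.55, Hmox1 from -1.49 to -1.10 and Nqo1 from -1.44 to -1.16. Nqo1 and Gclm were below the median level of all genes, so they had no value when dim genes were left out. Scaling on spike-in RNA moved all differences up by 0.26, so that the overall median became 0.16. In that setting 9 of the 10 genes still lay below 0 and below that median, with Keap1 above both.

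**Figure D3:**
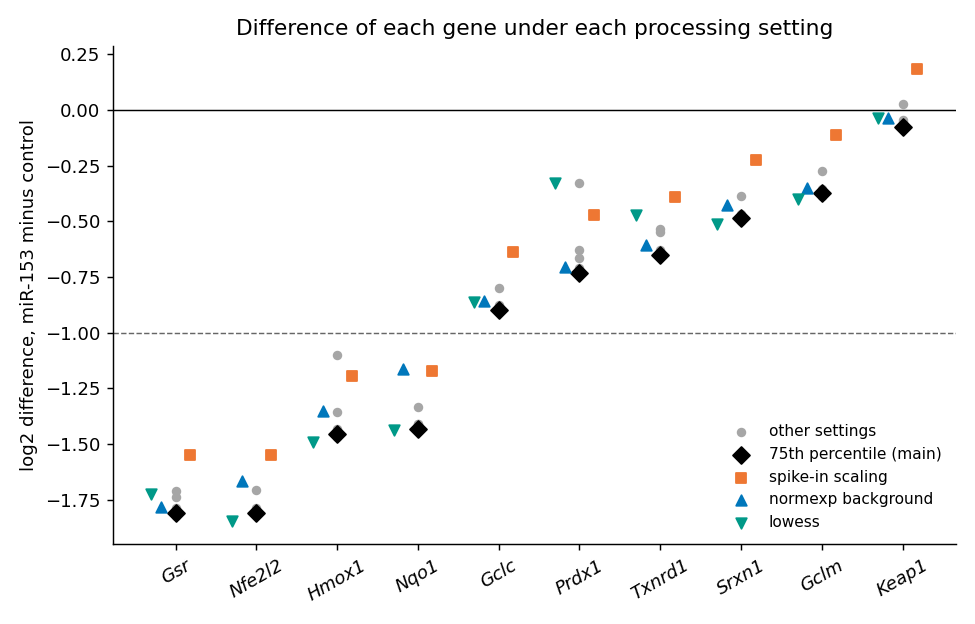
Log2 difference, miR-153 minus control (y axis), of each gene under the processing settings tried, with genes in order of their main value (black diamonds). Orange squares are spike-in scaling, blue triangles normexp, green triangles lowess and grey points the other settings; the dashed line marks 2-fold lower. Gsr, Nfe2l2, Hmox1 and Nqo1 stay below the dashed line in all settings shown, and only Keap1 crosses 0.

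The core letters of the antioxidant response element, TGACNNNGC, were searched on both strands of RefSeq promoters, from 250 bases before to 50 after each gene's start. Of the 10 genes, 7 had a promoter entry (Nfe2l2, Keap1, Nqo1, Gclm, Txnrd1, Srxn1 and Prdx1), and 5 of these 7 held the letters. Over all promoters of that length, 12.4% held them, or 14.0% of 27025 genes. The Srxn1 match lies 28 bases past the start. The other 4 are upstream, and these promoters are shown because the element is the known contact of NRF2 on its targets. Each is the 250 bases before the start, 5′ to 3′ on the gene's strand, on GRCm38.p6, with the match in capitals.
Prdx1 (chr4:116685349-116685598, plus strand): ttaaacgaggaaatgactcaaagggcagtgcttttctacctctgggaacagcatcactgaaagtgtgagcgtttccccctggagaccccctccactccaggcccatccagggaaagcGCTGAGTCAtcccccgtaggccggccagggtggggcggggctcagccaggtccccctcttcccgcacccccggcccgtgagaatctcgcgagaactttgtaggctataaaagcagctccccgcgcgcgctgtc
Gclm (chr3:122245307-122245556, plus strand): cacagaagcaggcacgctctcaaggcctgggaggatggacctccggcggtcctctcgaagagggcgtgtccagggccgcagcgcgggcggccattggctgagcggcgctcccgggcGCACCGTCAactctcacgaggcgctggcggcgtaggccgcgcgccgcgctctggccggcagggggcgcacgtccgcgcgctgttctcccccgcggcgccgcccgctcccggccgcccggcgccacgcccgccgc
Txnrd1 (chr10:82858956-82859205, plus strand): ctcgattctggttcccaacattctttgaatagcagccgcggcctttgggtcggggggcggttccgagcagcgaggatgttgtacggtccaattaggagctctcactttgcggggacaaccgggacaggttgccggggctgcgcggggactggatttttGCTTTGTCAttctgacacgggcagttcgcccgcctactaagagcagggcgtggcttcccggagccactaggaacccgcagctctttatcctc
Nfe2l2 (chr2:75704664-75704913, minus strand): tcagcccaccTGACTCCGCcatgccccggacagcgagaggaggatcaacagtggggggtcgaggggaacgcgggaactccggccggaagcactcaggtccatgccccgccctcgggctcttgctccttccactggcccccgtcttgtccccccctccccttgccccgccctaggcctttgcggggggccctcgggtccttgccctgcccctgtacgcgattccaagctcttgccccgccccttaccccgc
In Prdx1, Gclm and Txnrd1 the match is on the strand opposite to the gene, and in Nfe2l2 it is on the gene's own strand. Read in the direction of the motif, the letters are TGACTCAGC in Prdx1, TGACGGTGC in Gclm, TGACAAAGC in Txnrd1 and TGACTCCGC in Nfe2l2. Txnrd1 has 3 promoter entries, of which 1 holds the motif. The 4 targets with a match in their window (Prdx1, Txnrd1, Srxn1 and Gclm) had differences from -0.73 to -0.37, and Nqo1, whose window holds no match, had -1.43. A looser form, TGANNNNGC, which contains the first and was added after the sequences were seen, was held by 6 of the 7 genes and by 45.0% of all genes. A match is a description of letters, and elements farther from the start were not searched.

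The rest of the NRF2 system was described from 8 lists of 108 further genes, of which 94 were measured on both arrays. By the 2-fold rule 16 (17.0%) of them were lower and 6 (6.38%) higher, and 72 lay between. Their median was -0.21. The shares of all genes were 11.1% lower and 9.21% higher, which are the background for each list count below. With spike-in scaling 9 of the 94 (9.57%) were lower and 12 higher, beside 7.26% and 14.2% of all genes. The balance between directions thus depends on the scaling, in these genes and over all genes. The list closest to the targets was quinone and xenobiotic metabolism, with 3 of 12 lower, 0 higher and a median of -0.86. Ephx1, which hydrolyses epoxides, was at -1.78 (a second probe at -1.11), the carbonyl reductase gene Cbr3 at -1.75 and the Nqo1 paralog Nqo2 at -1.20 (-0.94 with spike-in scaling). Aox1, an aldehyde oxidase gene, was detected well above background in control cells alone, at least 6.26-fold above the miR-153 cells. Abcc4 (-0.98), Akr1b8 (-0.95) and Abcc1 (-0.87) lay just short of 2-fold, and Cbr1 was at 0.30.

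Glutathione genes outside the set had 3 of 11 lower and 1 higher. Chac1, which degrades glutathione, was at -2.35, and the glutathione peroxidase genes Gpx3 and Gpx2 were at -2.23 and -2.17, or -1.11 and -1.40 with normexp. Gpx8 lay on the border of the rule, with levels of 1.89 and 2.89, and Gss, which completes glutathione synthesis, at -0.17. Slc7a11, the cystine importer gene and a known NRF2 target, went against the set. It passed the background criterion in miR-153 cells alone, with levels of -4.42 (control) and -1.97 (miR-153), and was at least 5.18-fold higher in them. Gpx7 was the reverse case, seen in control cells alone and at least 2.57-fold higher in them. Glutathione transferases had 2 of 18 lower, Gsta3 (-1.05) and Gsto1 (-1.02), and 2 higher, Gstm7 (1.56) and Gsta4 (1.01), with a median of 0.15. Both counts are close to the shares of all genes (11.1% lower and 9.21% higher). With normexp Gsta3 was at -0.68, Gsto1 at -0.95 and Gsta4 at 0.94, and transcripts of this family are similar enough for probes to read more than 1 member. Gsto2, detected in miR-153 cells alone, was at least 4.12-fold higher in them.

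Among thioredoxins and peroxiredoxins outside the set, 2 of 10 were lower and 1 was higher. Txn1, the cytosolic thioredoxin that TXNRD1 reduces, was at -1.83, further from 0 than its reductase. Prdx4, the peroxiredoxin of the endoplasmic reticulum, was at -1.54. Prdx2 (0.28, or 0.89 with quantile normalization), Prdx3 (-0.70), Prdx5 (-0.09) and Prdx6 (-0.30) lay between, as did the mitochondrial reductase gene Txnrd2 (0.21). The higher gene was Txnip (1.94, second probe 1.39), whose protein binds and inhibits thioredoxin. Among 11 NADPH genes Tkt, of the pentose phosphate pathway, was lower (-1.19, or -0.77 after lowess and -0.93 with spike-in scaling) and 0 were higher. G6pdx was at -0.28 and Me1 at -0.61, and 9 of the 11 were below 0, where 56.1% of all genes were. That depends on the scaling. The median of the 11 was -0.25, beside -0.11 over all genes, and with spike-in scaling 0.01, beside 0.16.

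Heme and iron genes had 2 of 11 lower and 0 higher. Blvrb, a biliverdin reductase gene acting after heme oxygenase, was at -1.55. Tfrc, the transferrin receptor gene, was at -1.52 on its brightest probe, with others at -0.51 and -0.41, so only the brightest passed 2-fold. The brightest probe is picked anew in each setting, so the Tfrc value of -0.46 with normexp can stem from another probe. Hmox2, the constitutive heme oxygenase, was level at -0.06 (second probe 0.02), and the ferritin genes Fth1 and Ftl1 were at -0.27 and -0.12. The sign of both turned with other normalizations, to 0.36 and 0.44 with quantile normalization and 0.33 and 0.59 after lowess, so neither has a settled direction here. Of 9 genes for superoxide and peroxide removal, Msrb2 was lower (-1.03, or -0.88 with normexp) and 0 were higher, with Sod1 at -0.53 and Cat, encoding catalase, at 0.94 (1.20 with spike-in scaling, past 2-fold).

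Partners and regulators of NRF2 went both ways, with 2 of 12 lower and 2 higher beside Keap1. The small MAF genes Maff (-1.24) and Mafk (-1.21) were lower, short of 2-fold with spike-in scaling (-0.98 and -0.95), and the third, Mafg, was at -0.21 on its brightest of 3 probes. Sqstm1, which encodes the p62 protein that draws KEAP1 into autophagy and is itself a known NRF2 target, was higher at 1.65. Btrc, of the second ubiquitin ligase that acts on NRF2, was at 1.32. Bach1, the repressor that competes for the same elements, was at 0.77 (1.04 with spike-in scaling, past 2-fold) and Cul3 at -0.37. The related factor genes were Nfe2l1 (-0.03), Bach2 (0.44, or -0.07 as the mean of its probes), Nfe2l3 (at least 2.58-fold higher in miR-153 cells, where alone it was detected) and Nfe2 (likewise, at least 1.26-fold).

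**Figure D4:**
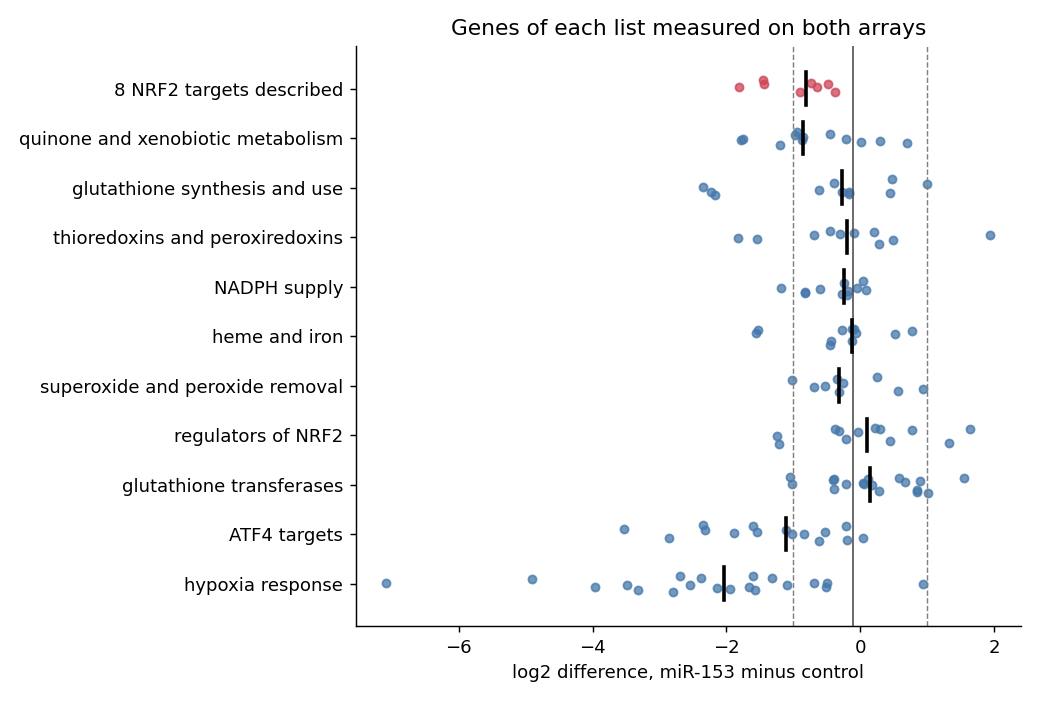
Log2 difference, miR-153 minus control (x axis), of each gene measured on both arrays, by list; red points are the 8 targets and blue points the other genes, without the 10 genes of the set. Black bars are list medians, the grey line is the median of all genes and dashed lines mark 2-fold. All red points lie left of the grey line, and the ATF4 and hypoxia lists at the bottom reach further left.

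Other programmes and cell markers differed between the same arrays, and their part in the values above was not tested. Of 20 hypoxia response genes 16 were at least 2-fold lower, with a median of -2.04, and Hmox1 is also a known target of hypoxia-inducible factor. Of 15 targets of ATF4, the factor of the amino acid stress response, 9 were lower, with a median of -1.11 and Atf4 itself at -0.84. That list shares Chac1, Slc7a11 and Slc3a2 with the glutathione list. All 8 NSPC markers were well above background on both arrays, with a summed level of 9.46 on the control and 9.35 on the miR-153 array. The sums came mainly from Fabp7 and Vim, and the single markers went both ways. By the 2-fold rule 2 were higher, Prom1 (1.74) and Sox1 (1.15, second probe 0.40), and 0 lower. Below 0 were 3 of the 8: Nes (-0.95), Vim (-0.72, up to -0.06 in other settings) and Pax6 (-0.69). Neuron markers had 3 of 6 higher and 0 lower, with summed levels of 5.37 and 6.82, and astrocyte markers had 1 of 6 higher and 0 lower, with 4.99 and 5.55.

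Markers of cells not named in the labels were mostly dim. Of 9 microglia and macrophage markers 3 were measured and 0 passed 2-fold, with summed levels of 4.64 and 5.33. These came mainly from 1 Itgam probe, with levels of 4.54 and 5.27 (a difference of 0.73). The other Itgam probes were far dimmer (-3.60 and -3.34 in control cells) and went the other way (-0.75 and -0.64), so Itgam has no settled level here. Aif1, Cx3cr1, Ptprc, Tyrobp, C1qa and Cd68 did not pass the background criterion anywhere. Of 3 erythroid markers examined on the arrays, Hba-a1 and Alas2 failed it on both, and Slc4a1 was dim with no bound above 1. Their summed levels were -3.40 and -3.42. Endothelial markers had 2 of 5 measured and 0 past 2-fold, with summed levels of 4.06 and 3.39 that came mainly from Kdr, and Cdh5, Cldn5 and Tek did not pass it. Of 5 fibroblast markers measured, 3 were higher, with summed levels of 2.54 and 3.44.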

How the data were processed

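The authors deposited 1 scanner file per array and a value table, all as intensity on a linear scale. Per the submitters' processing notes the arrays were read with Agilent Feature Extraction 10.7.3.1, and per the file headers this subtracts background and removes spatial trends, with probe positions on mm9. The deposited value table equals that signal divided by 381 (control) or 485 (miR-153), so its scale is linear, uncentred and not inverted, with medians of 0.0826 and 0.0765 over non-control spots.

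Of 62976 spots per array, 59305 were not controls, and 229 with an outlier flag were left out. Log2 signals minus the array's 75th percentile were averaged over repeat spots (55674 probes). The brightest probe stood for a gene, and a gene was measured when that probe was well above background on both arrays (52.5% and 55.6% of spots were). A gene above background on 1 array has a bound, its level against the higher of its own signal and the lowest level above background on the other array (-4.34 control, -4.86 miR-153). Accessions matched RefSeq (GRCm38.p6) for 47.2% of probes, and the others kept the file's name. A summed level is log2 of the sum of linear levels over a list. No gene or list was tested, since each group has 1 array.

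The 10 genes, the lists and the rules were chosen with earlier results of these data known. Named beside the cell markers were the 10 genes, up to 4 per list and direction past 2-fold, 16 genes fixed by name and those with a bound above 1. Some genes near the threshold and some probe details were chosen after their values were seen. Others well inside 2-fold, among them Gss, Me1, Cbr1, Fth1, Ftl1, Cul3, Nfe2l1 and Bach2, were also named outside these rules, with their values known. Alternatives used limma 3.58.1 (normexp, offset 50) in R 4.3.3 and statsmodels 0.14.6 (lowess). The counting was tested on simulated data. The number of arrays limits the precision, and no spread between cultures was measured. One marker of the erythroid list is not reported here.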

Additional observations from a re-analysis of the deposited data

How the results depend on the processing

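Over 13 alternatives, Gsr, Nfe2l2, Hmox1 and Nqo1 stayed at least 2-fold lower wherever they were measured under the 2-fold rule. Leaving out the 1.5-fold and 3-fold rules, 95 of 97 values of the 9 genes other than Nfe2l2 kept their sign and their side of 2-fold. Many of these values could not change. Keeping outlier spots and changing the filter on dim probes left each value as it was, and averaging probes moves only genes with more than 1 probe. The exceptions were both of Keap1, at 0.19 with spike-in scaling and 0.03 with median scaling. The median over the 10 genes was -0.55 with spike-in scaling, -0.69 after lowess, -0.71 with quantile normalization and -0.71 with median scaling. A 1.5-fold rule counted 7 of the 10 genes and 6 of the 8 targets as lower, beside 24.6% of all genes, and a 3-fold rule 2 and 1, beside 4.29%. Among the 94 further genes, a 1.5-fold rule gave 26 lower and 14 higher (24.6% and 18.6% of all genes). A 3-fold rule gave 6 lower and 2 higher (4.29% and 3.15% of all genes). Spike-in scaling gave 9 lower and 12 higher (7.26% and 14.2% of all genes). The filter on dim probes changed how many of the further genes were counted. At least median level left 67, of which 9 (13.4%) were lower and 4 higher. No filter on dim probes counted all 108, of which 19 (17.6%) were lower and 11 higher. Over all genes, 45.4% of those past 2-fold were higher, against 66.2% with spike-in scaling. The cause of these moves was not tested, beyond the fewer or added genes and other thresholds that some settings use by construction. No paired analysis was possible because each group has 1 array, and no array could be left out. Nqo1, Gclm and the second Hmox1 probe were the dimmest of the set. Normexp moved their differences to -1.16, -0.35 and -0.59.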
